A study of Danio rerio with 18 samples.

Results

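The lens crystallin genes are the alpha, beta and gamma crystallins of the zebrafish, which encode the bulk proteins of the lens. They were taken as the genes whose single symbol in the array's probe annotation begins with cryaa, cryab, cryba, crybb, crygm, crygn or crygs. This rule found 45 genes of the 19247 that had a probe row with 1 gene symbol. They comprised 3 alpha, 6 beta A, 5 beta B, 26 gamma M, 2 gamma N and 3 gamma S crystallins. The rule used names only and no measured value.

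Crystallins are soluble proteins that elongating lens fibre cells make in very large amounts, and their dense packing gives the lens its transparency and refractive power. Alpha crystallins belong to the small heat shock protein family and act as chaperones that keep other lens proteins from aggregating. Beta and gamma crystallins share a Greek key fold and have a structural role, and the gamma M group is the large, methionine-rich set of fish lenses. Outside the eye most of these genes are silent, so in sorted blood and vessel cells their RNA is commonly read as a measure of lens material.

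The cells were taken from embryos of AB fish with 2 transgenes, Runx1+23:GFP and kdrl:DsRed2. Runx1+23 is an enhancer used to label hematopoietic stem and progenitor cells (HSPC), and the kdrl promoter labels vascular endothelium. Embryo pools were exposed from 2 to 3 days post fertilization (dpf) either to 75 µM Lycorine in 1% DMSO or to 1% DMSO alone, then dissociated and sorted into Runx+, kdrl+ and negative (non-fluorescent) cells. Lycorine is an alkaloid of Amaryllidaceae plants known to inhibit protein synthesis. The 6 groups were therefore Lycorine Runx+, DMSO Runx+, Lycorine kdrl+, DMSO kdrl+, Lycorine negative and DMSO negative, each with 3 single-channel arrays numbered 1 to 3. All groups shared the strain, both transgenes, the DMSO vehicle and the amplification of their RNA before hybridization.

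Values are log2 intensities as deposited. They ranged from 1.53 to 13.32 over all probe rows, and array medians lay between 4.87 and 5.12. The number of arrays, 3 per group, limits the precision, with a median standard error (SE) of a difference of 2 groups of 0.27 over all genes and 0.354 over the crystallins. The labels speak of biological replicates without saying that each array came from its own embryo pool, so p-values measure the spread between these samples, which may be technical. Of the endothelial markers, kdrl, cdh5, tie1, pecam1a and etsrp were measured. Their mean deviation from each gene's own 18-array mean was 3.09 to 3.23 in Lycorine kdrl+ arrays and 2.1 to 3.31 in DMSO kdrl+ arrays, and it was between -2.26 and -0.67 on the other arrays. The same score over 8 HSPC markers (runx1, myb, itga2b, gfi1aa, lmo2, tal1, coro1a and ikzf1) was -0.74 to -0.23 in Lycorine Runx+ arrays and -0.88 to 0.27 in DMSO Runx+ arrays. It was 0.69 to 1.00 in Lycorine kdrl+ arrays, 0.58 to 1.45 in DMSO kdrl+ arrays, and -0.81 to -0.48 in the negative arrays of both treatments. The Runx+ sort thus did not carry the highest HSPC marker score, though single markers differed. Between Runx+ and kdrl+ cells in DMSO, their log2 differences ranged from -2.55 to 1.25. There the arrays of 1 gene lay higher and of 5 lower without overlap, against 16.3% of all genes. Between Runx+ and negative cells in DMSO the differences ranged from -0.96 to 2.18. There 2 lay higher and 0 lower without overlap, against 10.9% of all genes. With Lycorine these ranges were -3.35 to 0.41 and -0.47 to 1.09.

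All 45 crystallin genes were found in the RefSeq gene table of the assembly GRCz12tu, on 12 chromosomes. Chromosome 9 held 26 of them, including 23 of the 26 gamma M genes, and 28 of the 45 stood directly next to another crystallin gene. Near-identical neighbours may share hybridization signal, so gamma M genes are not independent measurements. On these arrays 15 of the 45 had a mean value at or above the median of all genes' means, which was 5.94.

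The members differed in how far their RNA varied over the 18 arrays. The standard deviation (SD) over the arrays was 0.5 or more for 22 of 45 members (48.9%), against 29.7% of all genes, a line drawn after the values were seen and given without a test. These 22 spanned 1.75 to 6.15 log2 units between their lowest and highest array, and the other 23 spanned 0.638 to 2.24. The members nearest to the line were crygm2d14 (SD 0.59) inside it and crygs4 (SD 0.497) outside it. The 22 variable members were 1 alpha, 5 beta A, 2 beta B, 12 gamma M and both gamma N genes, and no gamma S gene. The less variable 23 had values between 2.28 and 7.73.

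Among the alpha crystallins, cryaa encodes the alpha A chaperone subunit of the lens. It stood at 4.22, 5.57 and 4.38 in Lycorine Runx+ cells, against 5.67, 5.89 and 3.75 in DMSO Runx+ cells. In kdrl+ cells it stood at 3.74, 3.01 and 3.53 with Lycorine and at 5.54, 4.60 and 3.26 with DMSO. In negative cells it stood at 4.61, 3.96 and 4.22 with Lycorine and at 4.39, 4.60 and 4.0 with DMSO. The highest values were thus in DMSO Runx+ replicates 1 and 2, and the 3 Lycorine kdrl+ arrays lay below every Lycorine Runx+ and Lycorine negative array. The alpha B genes cryaba and cryabb, whose mammalian counterpart is also made in muscle and heart, were steadier, with SDs over the arrays of 0.33 and 0.30. The group means of cryaba lay between 3.61 (Lycorine kdrl+) and 4.12 (DMSO kdrl+), and those of cryabb between 4.09 (Lycorine kdrl+) and 4.44 (DMSO negative). Neighbouring groups in either order differed by less than the SD within a group, which reached 0.55 for cryaba and 0.54 for cryabb in DMSO kdrl+ cells.

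Of the beta A crystallins, structural proteins with acidic chains, cryba2a varied most. It stood at 9.64, 10.29 and 9.88 in Lycorine Runx+ cells, against 9.65, 10.23 and 6.68 in DMSO Runx+ cells. Its kdrl+ values were 8.24, 5.50 and 7.65 with Lycorine and 9.83, 9.27 and 4.30 with DMSO. In negative cells it stood at 9.69, 9.49 and 9.61 with Lycorine and at 9.57, 9.52 and 8.02 with DMSO. All 3 Lycorine kdrl+ values were below 9, and DMSO kdrl+ replicate 3 was the lowest of the 18 arrays, 63.8-fold below the highest. In the order of group means, cryba2a averaged 9.94 ± 0.33 in Lycorine Runx+, 9.60 ± 0.10 in Lycorine negative, 9.04 ± 0.88 in DMSO negative, 8.85 ± 1.90 in DMSO Runx+, 7.80 ± 3.05 in DMSO kdrl+ and 7.13 ± 1.44 in Lycorine kdrl+ cells (SD, n = 3 each). The arrays of each neighbouring pair in this order overlapped. A further beta A gene, cryba1l2, averaged 6.96 ± 0.64 in Lycorine Runx+ cells and 5.29 ± 0.39 in Lycorine kdrl+ cells.

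The beta B crystallins have basic chains and pair with beta A chains in the lens. Their most variable gene, crybb1, stood at 10.79, 11.38 and 10.71 in Lycorine Runx+ cells, against 10.96, 11.58 and 7.56 in DMSO Runx+ cells. In kdrl+ cells it stood at 9.24, 6.88 and 8.90 with Lycorine and at 11.10, 10.64 and 6.32 with DMSO. In negative cells it stood at 10.53, 10.56 and 10.69 with Lycorine and at 10.84, 10.85 and 9.84 with DMSO. The lowest arrays of crybb1 were the 3 Lycorine kdrl+ arrays and replicate 3 of DMSO Runx+ and DMSO kdrl+ cells. The gene crybb1l2 also varied over the 18 arrays, with an SD of 1.22, whereas crybb1l3, crybb2 and crybb3 had SDs of 0.46, 0.32 and 0.43.

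The gamma crystallins, monomeric proteins of the dense lens core, held both the most and the least variable members. The gamma M gene crygm2d17 stood at 9.33, 9.98 and 9.62 in Lycorine Runx+ cells, against 8.99, 9.88 and 6.39 in DMSO Runx+ cells. Its kdrl+ values were 8.93, 4.23 and 7.32 with Lycorine and 10.38, 10.11 and 4.26 with DMSO. In negative cells it stood at 9.50, 9.69 and 9.45 with Lycorine and at 9.07, 10.08 and 8.20 with DMSO. Its highest array, DMSO kdrl+ replicate 1, was 70.9-fold above its lowest, Lycorine kdrl+ replicate 2. The gamma N gene crygn2 belongs to a class that in the mouse is also found in retina. It stood at 9.51, 10.34 and 8.77 in Lycorine Runx+ cells, against 9.96, 10.62 and 6.32 in DMSO Runx+ cells. In kdrl+ cells it stood at 8.09, 5.82 and 7.60 with Lycorine and at 10.12, 9.38 and 5.54 with DMSO. Its negative cells held 9.67, 9.30 and 9.78 with Lycorine and 9.66, 9.69 and 8.16 with DMSO, and its lowest arrays were those of crybb1. The gamma S gene crygs4, of a class also made in mammalian lenses, showed another order of arrays. It stood at 5.37, 4.41 and 6.11 in Lycorine Runx+ cells, against 5.52, 4.50 and 5.38 in DMSO Runx+ cells. Its kdrl+ values were 4.56, 4.53 and 4.70 with Lycorine and 4.86, 5.30 and 5.22 with DMSO. In negative cells it stood at 4.76, 5.11 and 4.26 with Lycorine and at 4.69, 4.26 and 4.80 with DMSO, and DMSO replicate 3 was the lowest in none of its groups.

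**Figure D1:**
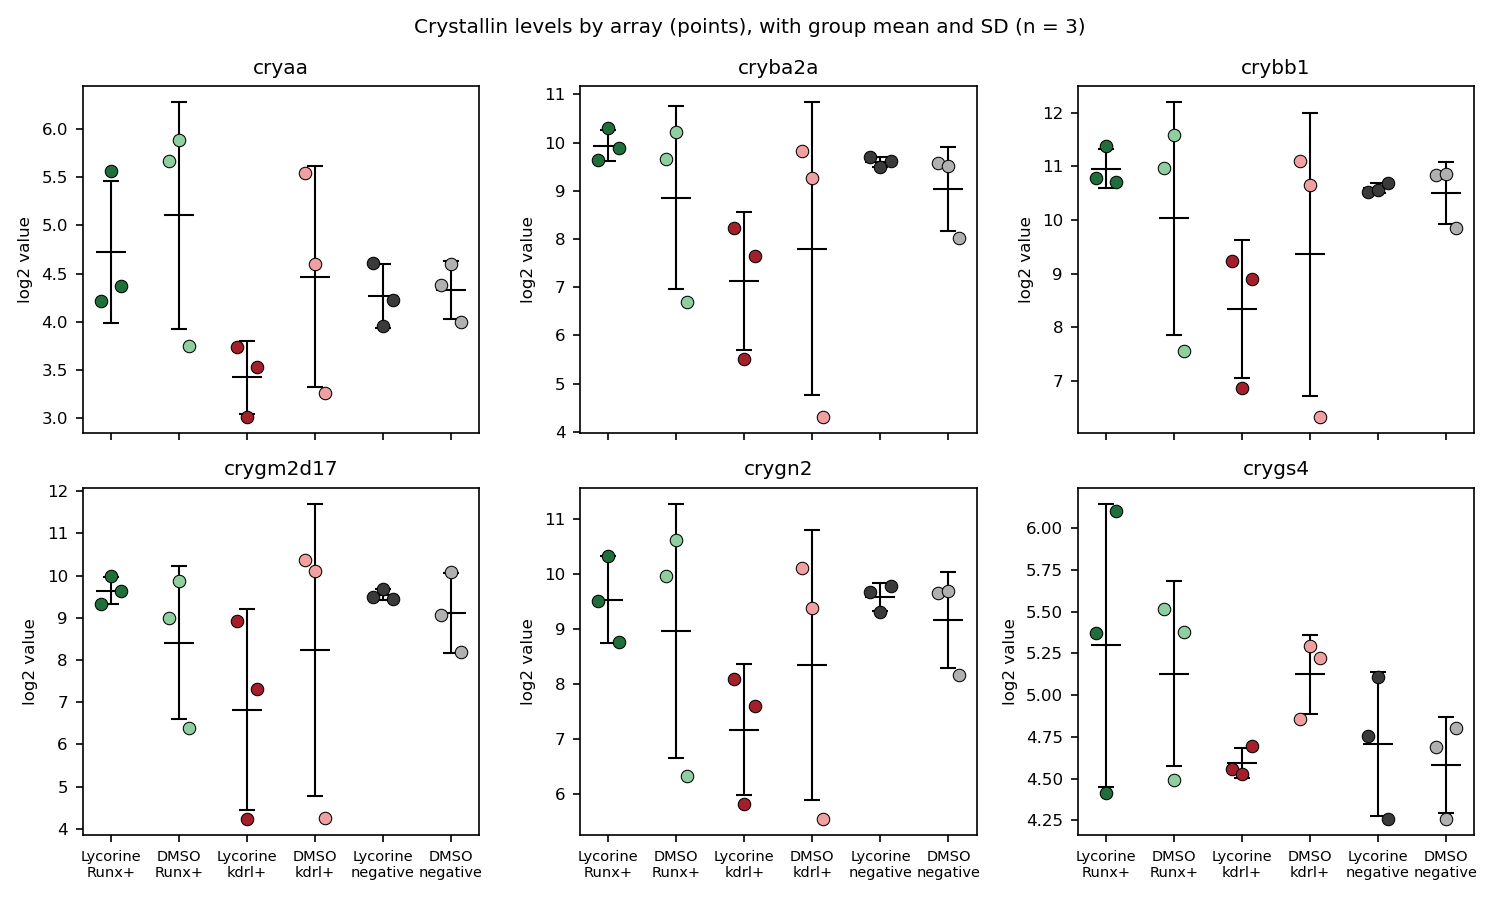
Log2 value (vertical axis, scaled for each gene) of the alpha gene and the most variable gene of each other crystallin class, by treatment and sort; points are arrays, long ticks group means and bars the SD (n = 3). Replicate 3, drawn at the right of each group, is far below replicates 1 and 2 in DMSO Runx+ and DMSO kdrl+ cells for every gene shown except crygs4.

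The members were also summarised by array. The mean deviation of the 45 from each gene's own 18-array mean was 0.23, 0.63 and 0.37 on the Lycorine Runx+ arrays, against 0.45, 0.51 and -0.77 on the DMSO Runx+ arrays. It was -0.35, -1.07 and -0.66 on the Lycorine kdrl+ arrays, against 0.64, 0.38 and -1.17 on the DMSO kdrl+ arrays. It was 0.20, 0.16 and 0.14 on the Lycorine negative arrays, against 0.18, 0.33 and -0.19 on the DMSO negative arrays. The Lycorine negative arrays were thus nearly level, DMSO negative replicate 3 was below the other negative arrays, and the highest and lowest arrays of all were kdrl+ arrays with DMSO. Members above their own mean numbered 7, 4 and 4 of 45 on the Lycorine kdrl+ arrays, 33, 37 and 8 on the DMSO kdrl+ arrays, and 34, 31 and 8 on the DMSO Runx+ arrays. In bulk RNA of a sort, fewer lens cells and less crystallin RNA per lens cell cannot be told apart.

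DMSO arrays numbered 3 stood apart in the level of the variable crystallins. Among the 22 variable members, DMSO kdrl+ replicate 3 was the lowest of its group for 22, by a median of 2.49 log2 units below the lower of replicates 1 and 2. DMSO Runx+ replicate 3 was likewise lowest for 22, by a median of 2.46, and DMSO negative replicate 3 for 20, by a median of 0.81. These 22 were picked by an SD that includes the same arrays, so the counts are partly set by that choice. Of the 23 less variable members, replicate 3 was lowest for 17 in DMSO kdrl+ and 12 in DMSO Runx+ cells. In DMSO negative cells it was lowest for 8 of the 23 and highest for 13. Among Lycorine arrays, kdrl+ replicate 2 was the lowest of its group for 18 of the 22, by a median of 0.61. Over all 18 arrays, DMSO kdrl+ replicate 3 was the lowest for 17 of the 45 members and DMSO kdrl+ replicate 1 the highest for 13. The median SD of the 22 variable members within a group was 0.444 in Lycorine Runx+ and 1.52 in DMSO Runx+ cells, 0.693 in Lycorine kdrl+ and 1.95 in DMSO kdrl+ cells, and 0.265 in Lycorine negative and 0.536 in DMSO negative cells. For all genes these medians were 0.242 and 0.357, 0.191 and 0.384, and 0.198 and 0.301. The excess of the 22 over all genes is also partly set by their choice on SD. Because the test pools the spread of all 6 groups into 1 variance per gene, the DMSO arrays numbered 3 also widen the errors of comparisons among Lycorine arrays. Calls that these arrays move are given with and without them. Median differences are given with 1 array left out at a time, not with all 3 left out. Counts of arrays without overlap are given only with these arrays included.

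**Figure D2:**
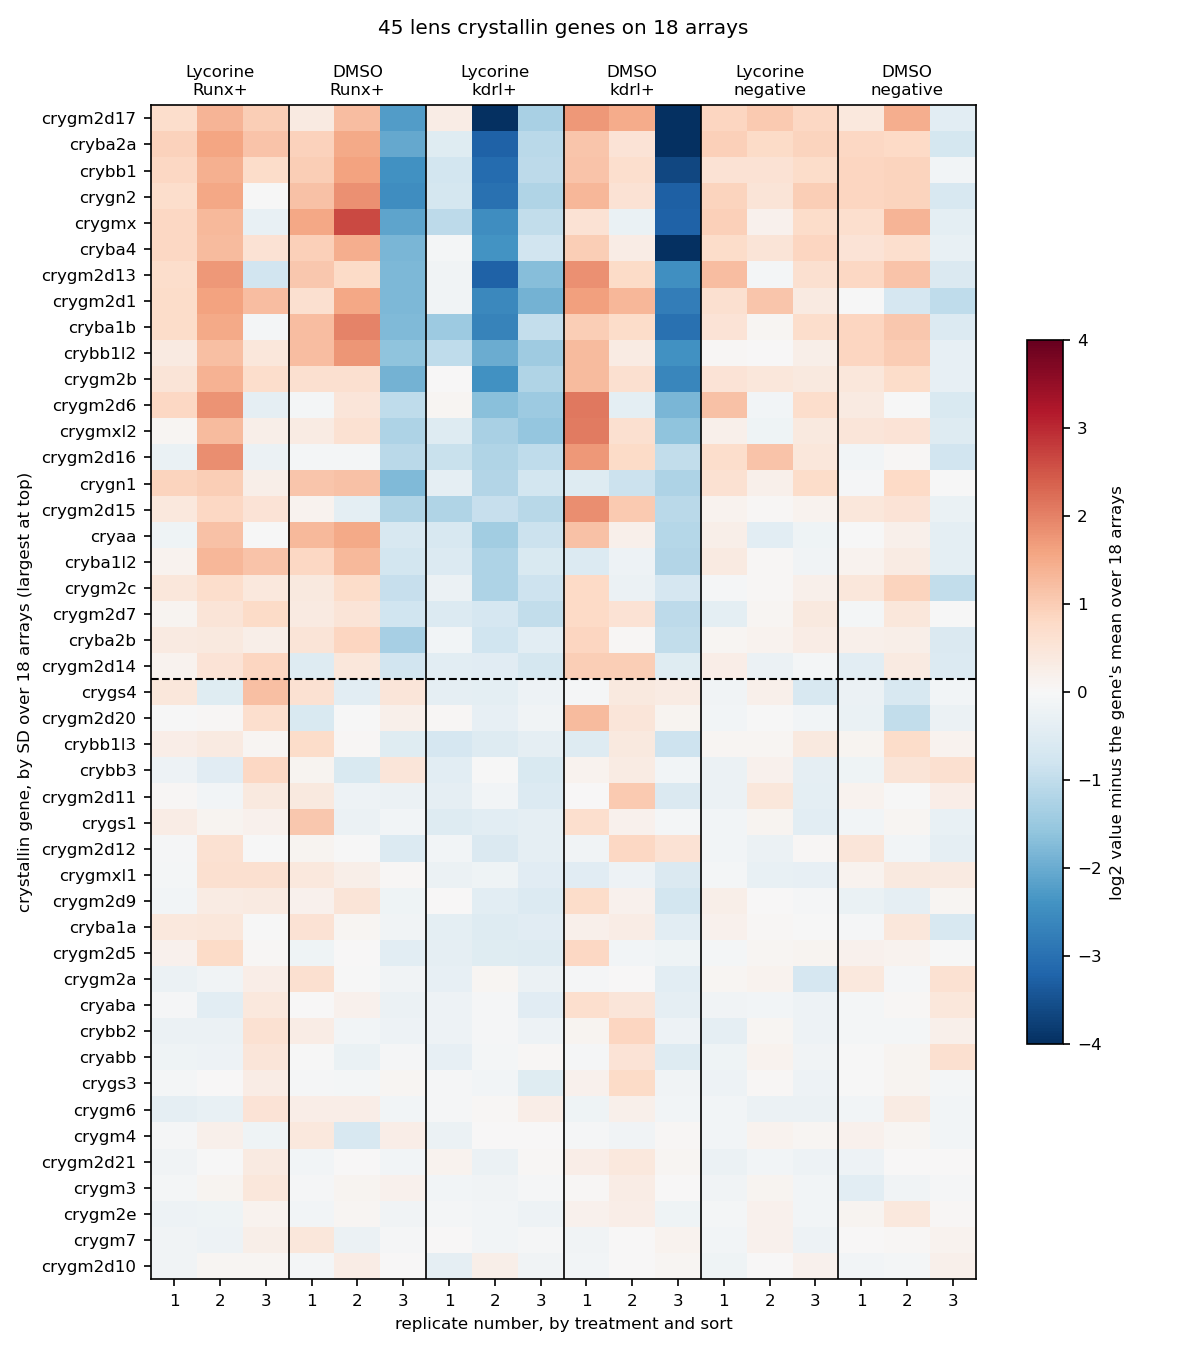
Deviation of each of the 45 crystallin genes (rows, most variable at the top) from its mean over the 18 arrays (columns), in log2 units, with colours saturating at 4 units and a dashed line at an SD of 0.5. Above the line the columns below 0 on average are the Lycorine kdrl+ arrays and replicate 3 of each DMSO sort. Among these, Lycorine kdrl+ replicate 1 (-0.49) and DMSO negative replicate 3 (-0.47) lie nearest to 0. Below the line little colour remains.

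With Lycorine, Runx+ and kdrl+ cells differed in a few crystallins by the test and in many by the separation of their arrays. In the fit to all 18 arrays 4 of 45 members were called, all higher in Runx+ cells, against 12.8% of all genes called in either direction. These were the beta A gene cryba1l2 with 1.67 ± 0.43 (log2 ± SE, adjusted p = 0.0177) and the gamma M genes crygm2d15 with 1.69 ± 0.50 (adjusted p = 0.0352), crygmxl1 with 0.69 ± 0.21 (adjusted p = 0.0424) and crygm2d5 with 0.79 ± 0.25 (adjusted p = 0.0458). At 4 of 45, the share called lay below that of all genes. The array values were separate more often: for 26 of 45 members every Lycorine Runx+ array lay above every Lycorine kdrl+ array, against 22.2% of all genes. The median difference over the 45 was 0.77, against 0.06 over all genes, and 44 of 45 differences were positive. By class, 1 of 3 alpha, 6 of 6 beta A, 3 of 5 beta B, 13 of 26 gamma M, 2 of 2 gamma N and 1 of 3 gamma S genes did not overlap. Markers of some other tissues lay the same way. Limma called higher in Runx+ cells 9 of 16 cornea and epidermis genes (median difference 1.30), 9 of 13 skeletal muscle genes (1.31) and 6 of 10 neural genes (1.25). Without overlap were 14 of 16, 9 of 13 and 9 of 10 of these. Of 27 photoreceptor genes (median 1.18) none was called and 23 lay higher without overlap. Of 9 pigment epithelium genes (median 0.75) none was called and none was without overlap. Erythroid genes lay the other way (median -0.60), with 1 of 6 called lower and 4 lower without overlap. The part of these tissues in the crystallin difference was not tested. The largest differences were 2.82 ± 1.31 for crygm2d17 (adjusted p = 0.175) and 2.81 ± 1.11 for cryba2a (adjusted p = 0.108), neither of them called.

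The called genes had these values. The gene cryba1l2 stood at 6.24, 7.42 and 7.23 in Lycorine Runx+ cells, against 5.54, 4.84 and 5.49 in Lycorine kdrl+ cells. The gene crygm2d15 stood at 7.91, 8.29 and 8.04 in Lycorine Runx+ cells, against 6.27, 6.55 and 6.35 in Lycorine kdrl+ cells, a 3.22-fold difference with little spread in either group. The dimmer gene crygmxl1 stood at 4.16, 4.87 and 4.88 in Lycorine Runx+ cells, against 4.0, 4.08 and 3.77 in Lycorine kdrl+ cells. For crygm2d5, dimmer again, the values were 3.24, 3.84 and 3.12 in Lycorine Runx+ cells, against 2.70, 2.57 and 2.55 in Lycorine kdrl+ cells. All 6 lay below the array medians of 4.87 to 5.12. None of the 4 overlapped between these groups. Over the other settings tried, the call was lost in 3 of 30 for cryba1l2, 7 of 30 for crygm2d15, 11 of 29 for crygmxl1 and 13 of 29 for crygm2d5, with the same sign in each.

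The count depended on which arrays entered the fit. When limma was fitted to the 6 Lycorine Runx+ and kdrl+ arrays alone, 27 of 45 members were called, all higher in Runx+ cells, against 25.4% of all genes. Without the 3 DMSO arrays numbered 3, an alternative chosen after seeing the data, 24 were called, against 18.2% of all genes. Without Lycorine kdrl+ replicate 2 in the fit to the other 17 arrays, none was called, although the median difference over the 45 stayed between 0.74 and 0.87 whichever single array was left out. The share of all genes called in that fit is not given here, so the loss of calls alone is not a result about the crystallins.

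With Lycorine, kdrl+ and negative cells were separate in about as many crystallins, again with few calls. In the fit to all 18 arrays 1 of 45 members was called, crygm2d16, against 12.9% of all genes. It stood at 2.82, 2.5 and 2.70 in Lycorine kdrl+ cells, against 4.42, 4.86 and 4.15 in Lycorine negative cells, a difference of -1.80 ± 0.57 (adjusted p = 0.0464). These values all lay below the array medians of 4.87 to 5.12. The call of crygm2d16 was lost in 14 of 29 other settings, centring and cyclic loess among them. Every Lycorine kdrl+ array lay below every Lycorine negative array for 24 of 45 members, against 21.3% of all genes. Only crygm6 showed the opposite separation. The median difference over the 45 was -0.52, against -0.03 over all genes. Limma also called lower in kdrl+ cells 7 of 10 neural, 3 of 16 cornea and epidermis, 2 of 6 erythroid and 1 of 13 skeletal muscle genes, and 9, 15, 5 and 6 of these lay lower without overlap. For cryba2a the difference was -2.47 ± 1.11 (adjusted p = 0.182) and for crybb1 -2.25 ± 1.04 (adjusted p = 0.196). Fitted to the 6 Lycorine kdrl+ and negative arrays alone, limma called 24 of 45 members, all lower in kdrl+ cells, against 26.1% of all genes. Without the DMSO arrays numbered 3 it called 16, all lower, against 16.5% of all genes. With the replicate number within treatment as a block it called 11, all lower, against 15.7% of all genes. This comparison and that of Runx+ with kdrl+ cells share the 3 Lycorine kdrl+ arrays, so they are not separate evidence.

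Between Lycorine Runx+ and Lycorine negative cells no member was called by limma, against 0.0104% of all genes. An unadjusted p under 0.05 was found for 1 of 45 members, against 666 of all 19247 genes. Every Lycorine Runx+ array lay above every Lycorine negative array for 6 of 45 members (crybb1, crybb1l2, crygm2c, crygm2d15, crygmxl1 and crygs1), against 7.49% of all genes. The median difference over the 45 was 0.21, against 0.01 over all genes, and 38 of 45 differences were positive.

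**Figure D3:**
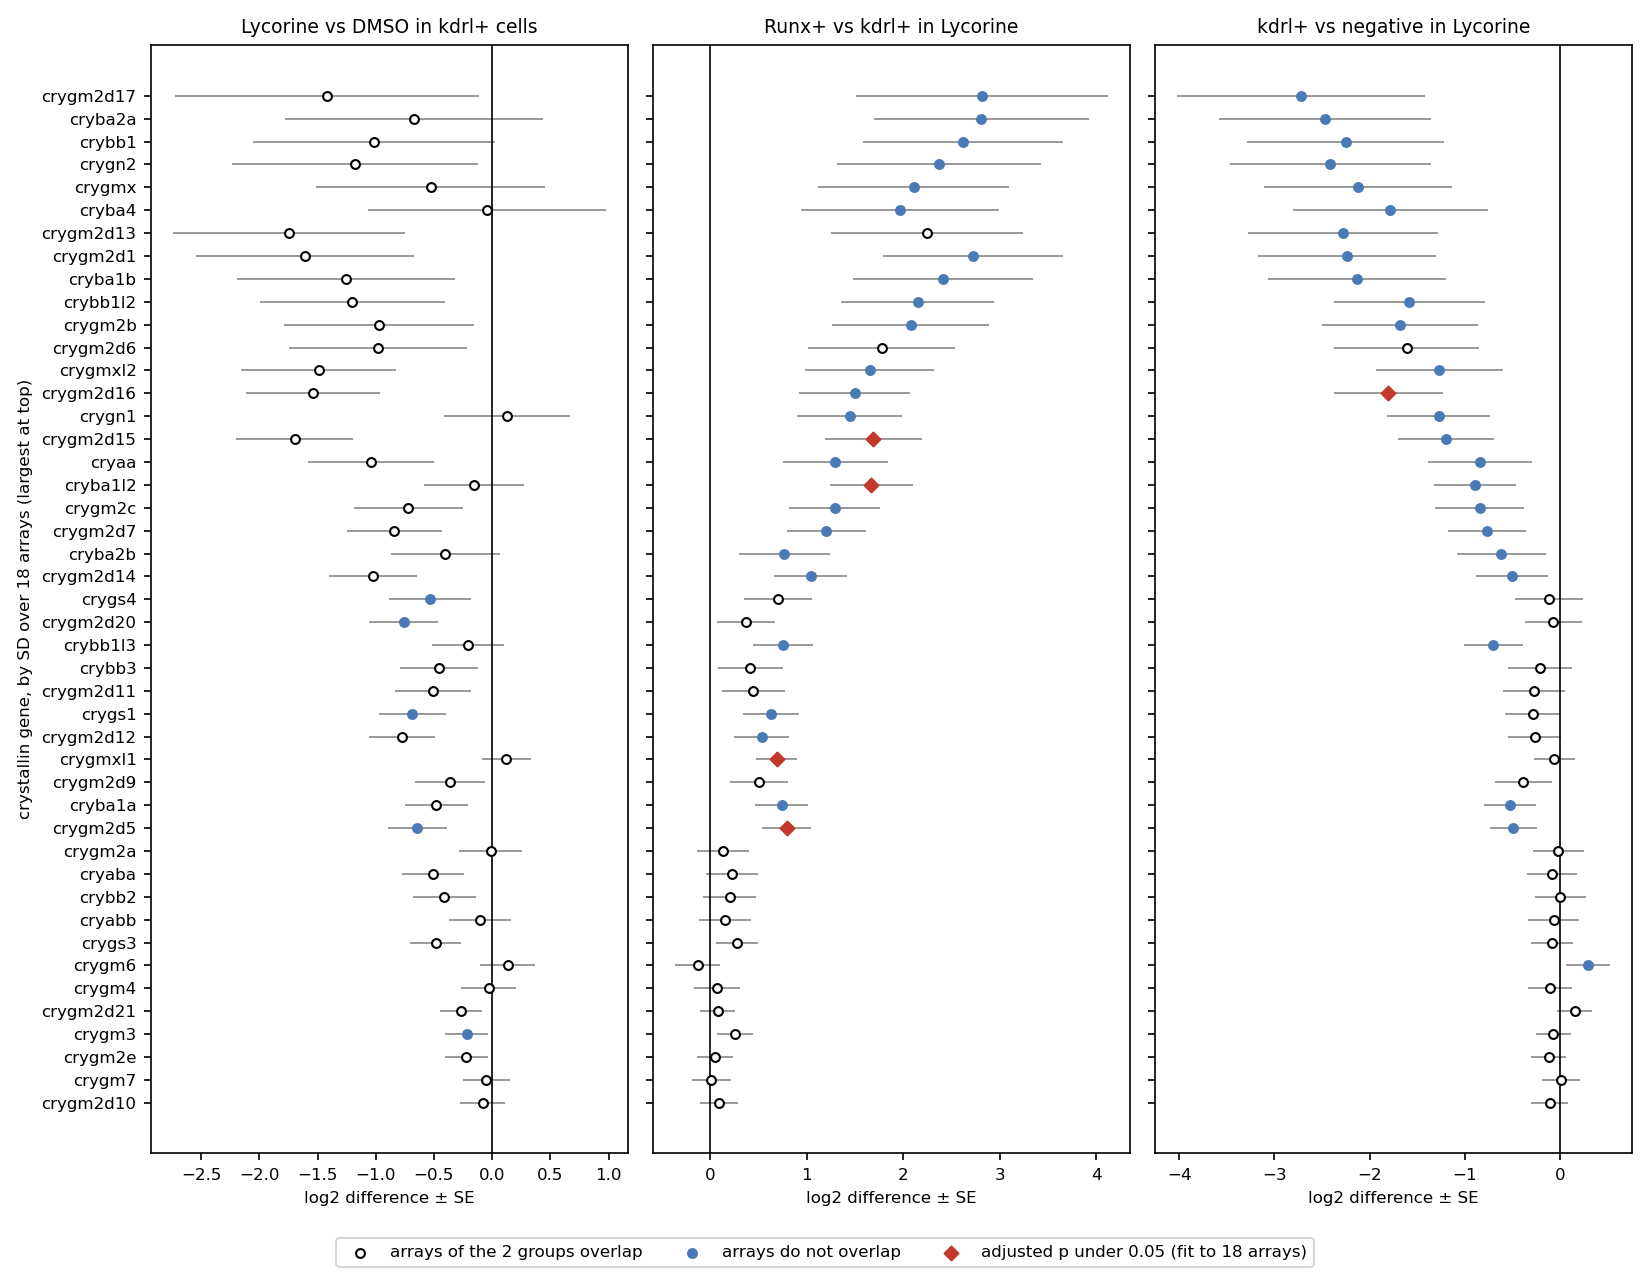
Log2 difference ± SE (horizontal axes) of each of the 45 crystallin genes in 3 comparisons, most variable gene at the top; filled points mark genes whose arrays do not overlap and diamonds those called in the fit to 18 arrays. In the middle and right panels the upper genes lie far from 0 without overlap but few are called, and in the left panel the upper genes overlap.

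The comparison of Lycorine with DMSO within a sort asks whether the compound moved crystallin RNA. In kdrl+ cells limma called no member, against 0.052% of all genes. An unadjusted p under 0.05 was found for 9 of 45 members, against 2192 of all 19247 genes. The differences were negative for 42 of 45 members, with a median of -0.53 against -0.06 over all genes. The median was -0.31 without DMSO kdrl+ replicate 1 and -0.85 without DMSO kdrl+ replicate 3. Skeletal muscle genes had a median of -1.18, with 9 of 13 lower without overlap, erythroid genes -0.89, with 3 of 6, and neural genes 0.73. Every Lycorine array lay below every DMSO array for 5 members (crygm2d20, crygm2d5, crygm3, crygs1 and crygs4), against 10.2% of all genes. None of these 5 was among the 22 variable members, in all of which DMSO kdrl+ replicate 3 lay below the highest Lycorine kdrl+ array. In some of the 22 another DMSO kdrl+ array did so too. For crygn1, replicates 1 and 2 stood at 5.26 and 4.91, against a highest Lycorine kdrl+ value of 5.42. For crygm2d15, the kdrl+ values were 6.27, 6.55 and 6.35 with Lycorine, against 9.32, 8.53 and 6.40 with DMSO, a difference of -1.69 ± 0.50 (adjusted p = 0.263).

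Without the 3 DMSO arrays numbered 3, limma called 15 of 45 members in kdrl+ cells, all lower with Lycorine, against 3.67% of all genes. They were cryaa, 2 beta A, 2 beta B and 9 gamma M genes and crygn2. The largest called difference was that of crygm2d17 at -3.42 ± 0.87 (adjusted p = 0.0455), and that of crygm2d15 was -2.54 ± 0.25 (adjusted p = 0.00109). The alpha gene cryaa differed by -1.64 ± 0.39 (adjusted p = 0.0349) and crybb1 by -2.53 ± 0.50 (adjusted p = 0.0187). Leaving out DMSO kdrl+ replicate 3 alone gave 6 called members, against 2.2% of all genes. With 2 DMSO kdrl+ arrays left, and with the array choice made on crystallin level itself, these calls are a description and not an independent test. Endothelial marker scores were 3.09, 3.23 and 3.18 on the Lycorine kdrl+ arrays, against 2.1, 2.28 and 3.31 on the DMSO kdrl+ arrays. The DMSO kdrl+ array with the low crystallin score, replicate 3, thus had an endothelial score like those of the Lycorine arrays. The part of sort purity in the difference between Lycorine and DMSO was not tested.

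In Runx+ cells limma called no member between Lycorine and DMSO, against 0% of all genes. An unadjusted p under 0.05 was found for 1 of 45 members, against 2600 of all 19247 genes. The median difference was 0.21, against -0.04 over all genes, and it was -0.04 without DMSO Runx+ replicate 3. Every Lycorine array lay above every DMSO array for crygm2d15 and crygm2d5, 2 of 45 members against 15.3% of all genes without overlap in either direction. In Runx+ cells crygm2d15 stood at 7.91, 8.29 and 8.04 with Lycorine, against 7.63, 7.08 and 6.28 with DMSO.

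In negative cells limma likewise called no member, against 0% of all genes. An unadjusted p under 0.05 was found for 1 of 45 members, against 1302 of all 19247 genes. The arrays did not overlap for 6 of 45 members, 3 higher and 3 lower with Lycorine, against 16.9% of all genes. Those higher were crygm2d1, crygm2d16 and crygm2d20, and those lower were cryaba, crygm6 and crygmxl1. The median difference was -0.02, against -0.08 over all genes.

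The differences between the Lycorine effects of 2 sorts were tested by interaction contrasts. Limma called no member in any of the 3, against 0% of all genes in each. Unadjusted p was under 0.05 for 8 of 45 members between Runx+ and kdrl+ cells, against 852 of all 19247 genes. It was under 0.05 for 6 members between kdrl+ and negative cells, against 512 of all genes, and for 1 between Runx+ and negative cells, against 321. Median differences of effects over the 45 were 0.66 for Runx+ minus kdrl+, -0.61 for kdrl+ minus negative and 0.28 for Runx+ minus negative, with a median SE of the members of 0.501. Leaving out 1 array moved kdrl+ minus negative to between -0.84 (without DMSO kdrl+ replicate 3) and -0.27 (without DMSO kdrl+ replicate 1). It moved Runx+ minus negative to between -0.02 (without DMSO Runx+ replicate 3) and 0.48 (without DMSO Runx+ replicate 1). The gene crygm2d15 had the largest difference between Runx+ and kdrl+ cells, 2.78 ± 0.71 (adjusted p = 0.983). Without DMSO kdrl+ replicate 3 this contrast called 1 member. The share of all genes called in that fit is not given here, so that count alone is not a result about the crystallins.

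In DMSO, kdrl+ and negative cells differed in 2 of 45 members, against 10.5% of all genes. The gamma M gene crygm2d20 stood at 4.90, 4.13 and 3.73 in DMSO kdrl+ cells, against 3.36, 2.66 and 3.40 in DMSO negative cells, and was higher by 1.11 ± 0.30 (adjusted p = 0.0236). The gene crygmxl1 stood at 3.78, 4.04 and 3.66 in DMSO kdrl+ cells, against 4.37, 4.64 and 4.60 in DMSO negative cells, and was lower by -0.71 ± 0.21 (adjusted p = 0.0421). Both are among the 23 less variable members, and their calls were lost in 3 of 29 and 16 of 29 other settings. Arrays did not overlap for 6 members, 4 higher and 2 lower in kdrl+ cells, against 20.6% of all genes. The median difference was -0.02, against -0.05 over all genes, and 0.39 without DMSO kdrl+ replicate 3.

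In DMSO, limma called no member between Runx+ and negative cells, against 0.0052% of all genes. None had an unadjusted p under 0.05, against 2415 of all 19247 genes. No member was without overlap there, against 10.9% of all genes. The median difference was -0.07, and 0.28 without DMSO Runx+ replicate 3. Between Runx+ and kdrl+ cells in DMSO none was called either, against 8.43% of all genes. An unadjusted p under 0.05 was found for 4 of 45 members, against 4210 of all 19247 genes. With the replicate number within treatment as a block limma called 2, 1 in each direction, against 12% of all genes. The arrays of crygmxl1 (higher in Runx+ cells) and crygm2d21 (lower) did not overlap, against 16.3% of all genes in either direction. The median difference was 0.04, and it was -0.40 without DMSO kdrl+ replicate 3 and 0.29 without DMSO Runx+ replicate 3.

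Genes of the lens outside the name rule followed the crystallins over the arrays as a list, though not each of them did. Of 17 further lens structural genes 16 were measured: the water channel genes mipa and mipb, the lens membrane genes lim2.1 to lim2.5, the connexins gja3, gja8a and gja8b, the beaded filament genes bfsp1 and bfsp2, and lgsn, dnase1l1l, grifin and birc7. Their mean deviation was 0.37, 1.07 and 0.29 on the Lycorine Runx+ arrays, against 0.46, 1.23 and -0.98 on the DMSO Runx+ arrays. It was -0.37, -1.28 and -0.74 on the Lycorine kdrl+ arrays, against 0.34, -0.10 and -1.22 on the DMSO kdrl+ arrays. It was 0.27, 0.01 and 0.20 on the Lycorine negative arrays, against 0.28, 0.64 and -0.47 on the DMSO negative arrays, and DMSO kdrl+ replicate 3 and Lycorine kdrl+ replicate 2 had the lowest scores of both lists. Over the 18 arrays this score correlated with the crystallin score at Pearson r = 0.930 and Spearman rho = 0.880, at r = 0.884 without the 2 arrays of most extreme crystallin score (DMSO kdrl+ replicate 3 and Lycorine kdrl+ replicate 2), and at r = 0.914 for deviations from group means. Taken singly, 10 of the 16 genes had an r above 0.7 with the crystallin score, with a median of 0.798 and a range from -0.063 to 0.927. The arrays share their RNA amplification and normalization, and these correlations are descriptions. Of the 16 genes limma called 3 between Runx+ and kdrl+ cells with Lycorine, against 12.8% of all genes called in either direction. All 3 were higher in Runx+ cells: gja3 by 1.06 ± 0.28 (adjusted p = 0.0213), lgsn by 1.55 ± 0.44 (adjusted p = 0.0295) and grifin by 2.21 ± 0.67 (adjusted p = 0.0380). In that comparison 12 of 16 did not overlap and were higher in Runx+ cells, against 22.2% of all genes. With Lycorine 11 of 16 lay lower in kdrl+ than in negative cells without overlap, against 21.3% of all genes, none of them called.

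Among all 19202 genes outside the rule, 264 had an r above 0.7 with the crystallin score, and the 10 with the highest r included 5 of these lens structural genes. The highest was si:ch211-255g12.6 (r = 0.961), a gene without an established name, with an SD over the arrays of 1.44. It was followed by lim2.3 (0.927), bfsp1 (0.923), bfsp2 (0.906), lim2.4 (0.904), lgsn (0.888), endou2 (0.882), capn3a (0.860), wu:fj16a03 (0.859) and gpx9 (0.857). The leading gene stood at 9.47, 10.47 and 9.34 in Lycorine Runx+ cells, against 9.86, 10.14 and 6.76 in DMSO Runx+ cells. In kdrl+ cells it stood at 8.51, 6.09 and 7.83 with Lycorine and at 10.13, 9.41 and 5.71 with DMSO, lowest on DMSO kdrl+ replicate 3, Lycorine kdrl+ replicate 2 and DMSO Runx+ replicate 3. The 22 variable members each correlated with the mean of the other 44 at r between 0.702 and 0.975 (median 0.910), and the 23 less variable ones at r between -0.138 and 0.784 (median 0.301). The deviations are not scaled, so the variable members largely set that mean, and this contrast is partly built in.

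Lens regulators, transcription factors and RNA-binding or signalling genes of lens formation, followed the crystallins less closely (r = 0.622 over 13 of 18 genes, and 0.330 without the 2 extreme arrays). With Lycorine 5 of the 13 were called higher in Runx+ than in kdrl+ cells, where 12.8% of all genes were called. These were pitx3 (1.38 ± 0.34, adjusted p = 0.0145), sox1a (1.53 ± 0.41), sox1b (1.69 ± 0.46), pax6b (1.28 ± 0.36) and pax6a (1.38 ± 0.44, adjusted p = 0.0472). Between kdrl+ and negative cells, pax6a, pax6b, sox1a and sox1b were lower in kdrl+ cells in both treatments, for example pax6a by -1.58 ± 0.44 with Lycorine (adjusted p = 0.0239) and by -2.15 ± 0.44 in DMSO (adjusted p = 0.00418). Limma called 4 of the 13 lower there in each treatment, against 12.9% of all genes called with Lycorine and 10.5% in DMSO. The receptor gene epha2a was higher in kdrl+ cells with Lycorine by 1.30 ± 0.42 (adjusted p = 0.0477). The pax6 and sox1 genes are also active in brain, and pax6a was the 1 regulator of 13 called between Runx+ and kdrl+ cells in DMSO, at 1.60 ± 0.44 (adjusted p = 0.0306). In that comparison 8.43% of all genes were called.

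Photoreceptor genes of the retina had another order of sorts. Their score over 27 of 31 genes was 0.79, 0.68 and 0.63 on the Lycorine Runx+ arrays, against 1.28, 0.99 and -0.30 on the DMSO Runx+ arrays. It was -0.07, -0.95 and -0.11 on the Lycorine kdrl+ arrays, against -0.09, 0.28 and -1.39 on the DMSO kdrl+ arrays. It was -0.41, -0.59 and -0.14 on the Lycorine negative arrays, against -1.01, 0.56 and -0.17 on the DMSO negative arrays. With Lycorine 24 of the 27 photoreceptor genes did not overlap and were higher in Runx+ than in negative cells, while 6 of 45 crystallins and 7.49% of all genes did so. In that comparison limma called no photoreceptor gene. Its smallest p was that of pde6a, a subunit of the rod phosphodiesterase, with 0.96 ± 0.26 (adjusted p = 1.00). In DMSO pde6a was higher in Runx+ than in kdrl+ cells by 1.19 ± 0.26 (adjusted p = 0.00912), as was the recoverin gene rcvrn2 by 1.53 ± 0.44 (adjusted p = 0.0392). These were 2 of 27 called there, against 8.43% of all genes. Without overlap in that comparison was 1 of 27, against 16.3% of all genes. Over the 18 arrays the photoreceptor and crystallin scores correlated at r = 0.677 (rho = 0.719), at 0.455 without the 2 extreme arrays and at 0.788 within groups.

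Other tissues that a sort could hold gave r with the crystallin score of 0.717 for pigment epithelium (9 of 10 genes), 0.564 for neural genes (10 of 10), 0.472 for skeletal muscle (13 of 13), 0.414 for cornea and epidermis (16 of 17) and -0.002 for erythroid genes (6 of 7). Without the 2 extreme arrays these were 0.608, 0.153, 0.268, 0.084 and -0.068, and for deviations from group means 0.679, 0.644, 0.296, 0.086 and 0.081. The endothelial and HSPC scores went the other way, with r of -0.538 and -0.544. Without the 2 extreme arrays these were -0.241 and -0.249, and for deviations from group means -0.414 and -0.477. The skeletal muscle score of DMSO Runx+ replicate 3 was 1.45, the highest of the 18 arrays, where the crystallin score was -0.77.

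Relatives of the crystallins outside the rule had low correlations with them as lists. The 9 of 10 measured small heat shock protein genes, the family of the alpha crystallins, had r = 0.313. Among them hspb15 was called, lower in DMSO kdrl+ than in DMSO negative cells by -1.25 ± 0.35 (adjusted p = 0.0301). It was 1 of 9, against 10.5% of all genes called there. The 7 of 8 measured genes with beta gamma domains or enzyme crystallin names had r = 0.071, with crybgx at 0.743 and crybg1a at -0.722. Of these, crybg1b was called, higher in DMSO Runx+ than in DMSO kdrl+ cells by 1.37 ± 0.39 (adjusted p = 0.0346). It was 1 of 7, against 8.43% of all genes called there.

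**Figure D4:**
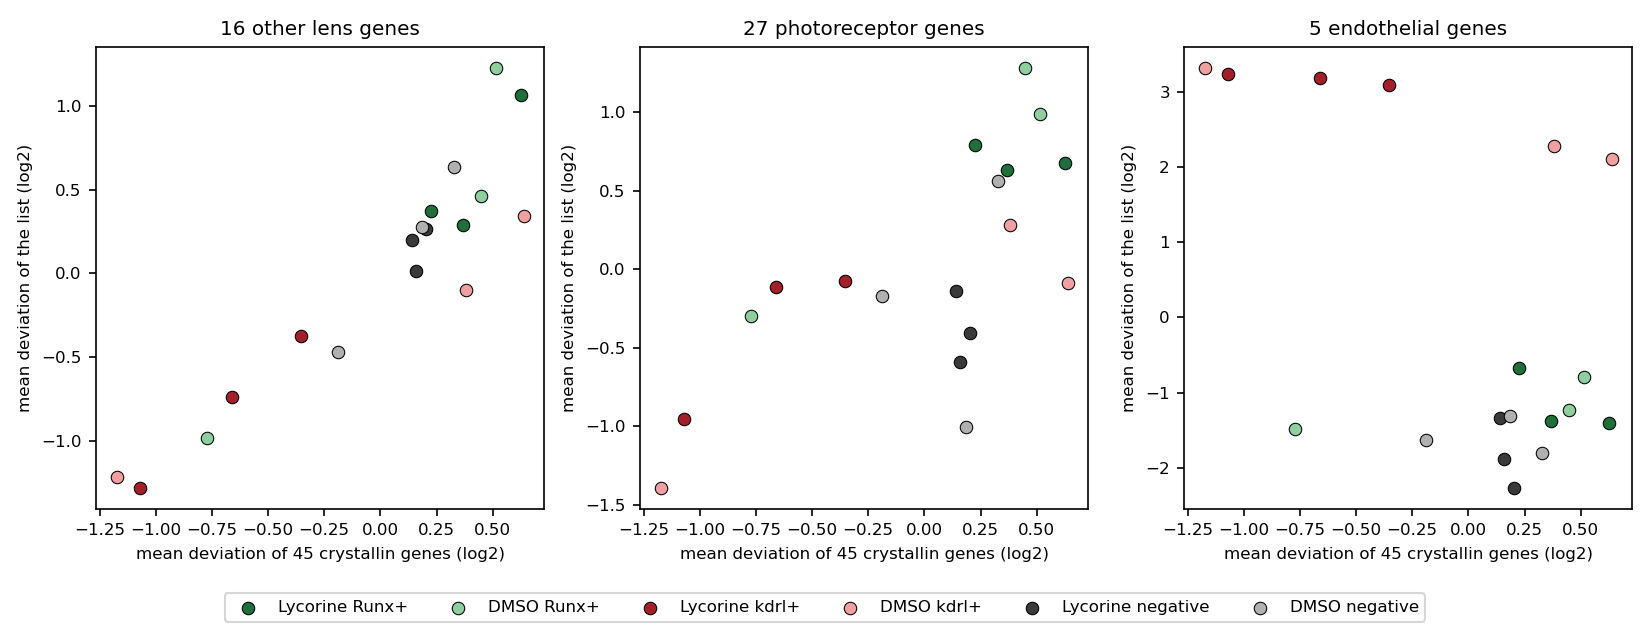
Mean deviation of 16 further lens genes, 27 photoreceptor genes and 5 endothelial genes (vertical axes, log2 units) against that of the 45 crystallin genes (horizontal axes) for the 18 arrays, coloured by treatment and sort. Lens genes lie close to a rising line, photoreceptor genes scatter about one, and endothelial genes separate the 6 kdrl+ arrays from the rest.

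A further 11 probe rows name a crystallin together with another symbol and were kept apart, 5 naming several crystallins and 6 a crystallin with another gene. The row of cryba1l1 and pcdh2g6 varied most. It stood at 10.20, 10.76 and 10.23 in Lycorine Runx+ cells, against 10.30, 10.79 and 7.30 in DMSO Runx+ cells. Its kdrl+ values were 9.14, 6.81 and 8.12 with Lycorine and 10.06, 9.91 and 6.22 with DMSO, lowest on DMSO kdrl+ replicate 3 as for crybb1. The row of crygm2d8 and crygm2d1 had an SD of 1.28 over the arrays, and the others had SDs between 0.19 and 0.69. Of the 45 members, crygmx and crygs3 had 2 rows each. The rows of crygmx agreed, with means of 7.21 and 7.18 and SDs of 1.52 and 1.33 over the 18 arrays, and those of crygs3 had SDs of 0.26 and 0.32.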

How the data were processed

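RNA of sorted zebrafish embryo cells was amplified and hybridized to 18 single-channel arrays. The deposited values are log2 intensities of 65528 probe rows, made by the authors with oligo and RMA, with limma also named, per the submitters' processing notes; versions are not given in the sources used here. Of these rows 20806 had 1 gene symbol, 855 several and 43867 none in the probe annotation. Each of 19247 genes was represented by its row with the highest mean over the 18 arrays, and 1372 genes had several rows. Array symbols were updated through the RefSeq gene table, 20323 by gene identifier, 72 by symbol and 43 by synonym, and 368 were kept as they stood. That table was used for names and neighbours only.

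Group means were fitted with limma 3.58.1 in R 4.3.3 (lmFit and eBayes, 2-sided) on all 18 arrays, with 1 variance per gene over the 6 groups. Benjamini-Hochberg adjustment ran over the 19247 genes within each of 12 contrasts, and a gene was called at an adjusted p under 0.05. Arrays did not overlap where every array of one group lay above every array of the other. Scores are means over a list of each gene's deviation from its 18-array mean. Alternatives were each array left out, the replicate number as a block, a filter on dim genes, other scalings, other rows per gene, array weights, a robust trend and fits to the arrays compared. The fit without the DMSO arrays numbered 3 was chosen after seeing the data. The script was tested on simulated data. Deviations of same-numbered arrays from their group means correlated above 0.1 in all 3 pairs for kdrl+ and negative cells with Lycorine (0.22 to 0.42) and in DMSO (0.12 to 0.39), for Runx+ and kdrl+ cells in DMSO (0.33 to 0.42), and for Lycorine and DMSO negative cells (0.15 to 0.31). The same held for DMSO kdrl+ and Lycorine negative cells (0.11 to 0.31), which differ in both sort and treatment and were not compared. For the pairs compared, the block is given in the results where it moved a count. The labels give no origin for the pairing.

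The genes named are every alpha crystallin, the most variable member of each other class and every member called in any contrast. Also named are the 10 outside genes most correlated with the crystallin score. From the further lens, regulator, photoreceptor and crystallin relative lists, called members or otherwise the one with the smallest p are named. Genes of the pigment epithelium, cornea and epidermis, neural, skeletal muscle and erythroid lists are given only in counts and medians. Other members are named in counts. The members and lists were chosen with earlier results of these data known. Sequences are not used here.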

Additional observations from a re-analysis of the deposited data

Results flagged for a closer look

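Lycorine and DMSO arrays were separate in opposite directions in 2 sorts for 2 of 45 members, both gamma M crystallins. The share of all genes with such opposite separation was not counted, so this is not a result about the crystallins. Without overlap in either direction were 16.9% of all genes in negative and 15.3% in Runx+ cells. In kdrl+ cells 10.2% of all genes lay lower with Lycorine without overlap. For crygm2d20 the difference between Lycorine and DMSO was 0.42 in negative cells, where every Lycorine array lay above every DMSO array, and -0.76 in kdrl+ cells, where every Lycorine array lay below. The interaction contrast, kdrl+ minus negative, was -1.18 ± 0.42 (limma, adjusted p = 0.999). For crygm2d5 the difference was 0.53 in Runx+ cells and -0.64 in kdrl+ cells, again without overlap in either sort. Its interaction contrast, Runx+ minus kdrl+, was 1.17 ± 0.35 (limma, adjusted p = 0.983). Neither difference between sorts was called, and both genes are dim, with group means between 2.61 and 4.25.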

How the results depend on the processing

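Counts of called crystallins changed with the arrays fitted, the variance model, the scaling and the rows tested, while the signs of called genes did not turn. Of 205 results of called genes under alternatives, 138 kept the call, 67 lost it and 0 changed sign. For Runx+ against kdrl+ cells with Lycorine (4 called) the count was 10 with the replicate block (14.4% of all genes), 22 with the replicate block within treatment (17.4%), 28 with array weights, 27 with the arrays compared alone and 24 without the DMSO arrays numbered 3. It was 2 after centring, 2 after cyclic loess and 1 with every probe row tested. For kdrl+ against negative cells with Lycorine (1 called) the count was 11 with the replicate block within treatment, 23 with array weights, 24 with the arrays compared alone and 16 without the DMSO arrays numbered 3. It was 0 with the filter on dim genes, centring, cyclic loess, every probe row or the robust trend. For kdrl+ against negative cells in DMSO (2 called) it was 0 with the dim filter or the arrays compared alone, and 1 with centring, every probe row, array weights or without the DMSO arrays numbered 3. For Runx+ against kdrl+ cells in DMSO (0 called) it was 2 with the replicate block within treatment, 1 with cyclic loess and 3 without the DMSO arrays numbered 3. That last setting also gave 15 for Lycorine against DMSO in kdrl+ cells and 1 for the difference of effects Runx+ minus kdrl+.

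With array weights 32.2% of all genes were called between Runx+ and kdrl+ cells and 30.6% between kdrl+ and negative cells with Lycorine. In the main fit these shares were 12.8% and 12.9%, so a higher count of members is partly a higher count of all genes. The dim filter left 15 members, whose medians were 0.63 and -1.18 for Lycorine against DMSO in Runx+ and kdrl+ cells. With Lycorine they were 2.15 for Runx+ against kdrl+ and -2.12 for kdrl+ against negative cells, and in DMSO 0.62 and -0.79. For the differences of effects they were 1.75 for Runx+ minus kdrl+ and -1.23 for kdrl+ minus negative.

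Leaving out 1 array gave 0 to 15 calls for Runx+ against kdrl+ cells with Lycorine (0 without Lycorine kdrl+ replicate 2, 15 without DMSO kdrl+ replicate 3 and 10 without DMSO Runx+ replicate 3), and 0 to 4 for kdrl+ against negative cells with Lycorine. In DMSO it gave 0 to 3 for each of kdrl+ against negative and Runx+ against kdrl+ cells. It gave 0 to 6 for Lycorine against DMSO in kdrl+ cells and 0 to 1 for the difference of effects Runx+ minus kdrl+. The share of all genes called changed as well, in the former from 0.052% to 2.2% without DMSO kdrl+ replicate 3. These counts alone are therefore not results about the crystallins. The medians ranged from -0.40 to 0.29 for Runx+ against kdrl+ and from -0.24 to 0.39 for kdrl+ against negative cells in DMSO, and from 0.42 to 1.05 for the difference of effects Runx+ minus kdrl+. The causes of these changes were not tested. Whether a replicate number marks a shared embryo pool is not given by the labels. Same-numbered Lycorine Runx+ and kdrl+ arrays correlated at -0.23 to 0.02, so their block is given here alone, and the block changed no other count by over 1.5 times. With 3 arrays per group, differences of the variable members carry wide errors.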
